A study of Arabidopsis thaliana with 3 samples.

Results

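On chromosome 3 of the plant Arabidopsis thaliana, 314 sites differed from the wild-type library by a G-to-A or a C-to-T change, out of 1990 variant sites in the whole table. They were chosen by chromosome, by single-base alleles and by the direction of change, read from the allele called in the wild type to the other allele. C-to-T changes made up 229 of them (72.9%) and G-to-A changes 85 (27.1%). The study mapped the thm1 mutation by bulked segregant analysis of leaf DNA, with 1 library per group and 3 libraries in all. WTa, labelled WT, gives the allele against which reads are counted. The thm1_like pool is labelled thm1 mutant, and the WTa_like pool is labelled WT. The sources used here do not state plant age, the number of plants per pool, the cross or the mutagen. With 1 library per group no value has a replicate check, and neighbouring sites are linked, so they are not replicates of each other.

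In bulked segregant analysis, plants of a segregating family are sorted by phenotype, pooled and sequenced as a pool. Around a recessive causal mutation the mutant pool approaches fixation of the mutant parent's allele, while a region unlinked to the trait should have the same allele share in both pools, apart from sampling of plants and reads. C-to-T and G-to-A changes are the usual product of alkylating mutagens such as ethyl methanesulfonate: the altered base is a guanine, and the change reads as G-to-A when that guanine lies on the reference strand and as C-to-T when it lies on the opposite strand.

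The SNP-index of a pool at a site is the fraction of its reads without the WTa allele. Delta is the difference of the indices, thm1_like minus WTa_like. At the 314 sites the thm1_like pool had 8020 reads (median 23 per site, range 7 to 75) and the WTa_like pool 7607 reads (median 22, range 7 to 89). WTa had 4203 reads (median 13, range 2 to 30), and fewer than 5 reads at 6 sites. Intervals from reads are exact (Clopper-Pearson) 95% intervals that cover counting error only, not the sampling of plants. For a count of 0, the share that 3 counts of the total would give is printed as a limit, beside the upper end of the exact interval. The higher of the pool indices was at least 0.296 at every site, so chromosome 3 sites where both pools have a low index are not analysed here. Positions are on the TAIR10 build.

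The thm1_like pool carried more of the non-WTa allele along most of chromosome 3. Averaged over the 314 sites, the index was 0.506 for thm1_like (SD 0.182) and 0.383 for WTa_like (SD 0.155), a mean delta of 0.123 (SD 0.214) and a median of 0.146. Delta was above 0 at 231 sites, below 0 at 80 and exactly 0 at 3. Counted over reads, 0.503 of thm1_like reads (interval 0.492 to 0.514) and 0.385 of WTa_like reads (interval 0.374 to 0.396) lacked the WTa allele. Both classes of change leaned the same way. C-to-T sites had a mean index of 0.539 (SD 0.184) against 0.403 (SD 0.158), a mean delta of 0.136. G-to-A sites had 0.418 (SD 0.145) against 0.329 (SD 0.132), a mean delta of 0.0892, and the difference between the classes was not tested.

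The median delta over all 1989 nuclear sites was 0.0385, and over the 1368 nuclear sites of these classes it was 0.0923. For the same classes of change, mean delta was 0.0611 on chromosome 1 and 0.0782 on chromosome 2. Chromosome 4 stood at 0.380 and chromosome 5 at -0.0826. On chromosome 3 itself, the 83 other substitutions had a mean delta of 0.0219 (SD 0.194) and the 63 indels one of -0.0800 (SD 0.233). These values are given side by side, without a test, because linked sites of 1 library per pool give no spread between samples.

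**Figure D1:**
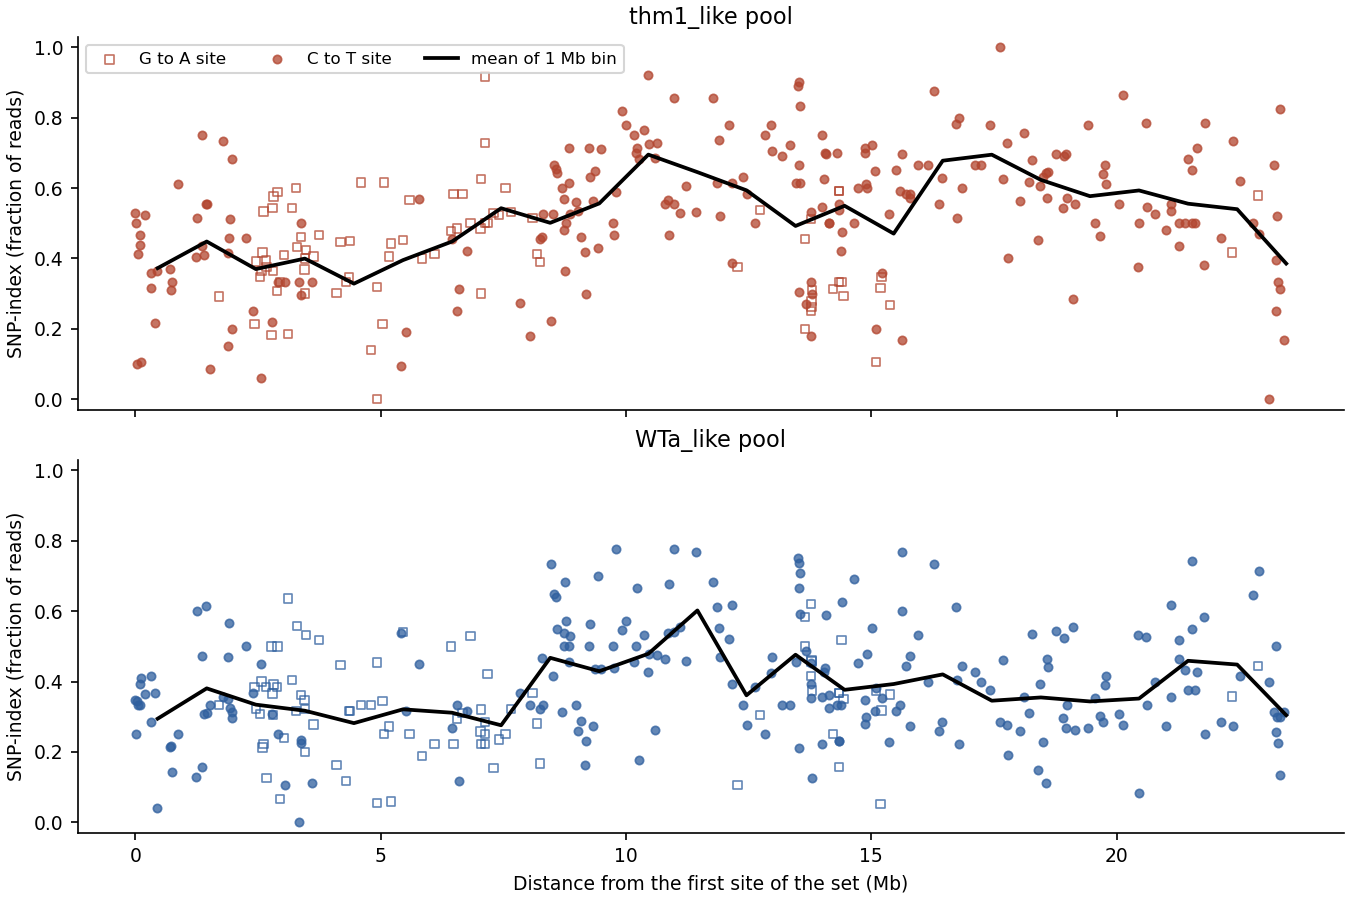
SNP-index of each of the 314 sites in the thm1_like pool (top) and the WTa_like pool (bottom), as a fraction of reads, against distance in Mb from the first site of the set. Open squares are G-to-A sites, filled circles are C-to-T sites and lines join the means of 1 Mb bins. The thm1_like line lies at 0.328 to 0.448 over the first 7 bins and reaches 0.695 in the bins from 10 and from 17 Mb, and the WTa_like line has its maximum of 0.602 in the bin from 11 Mb.

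The classes of change were arranged in long stretches. C-to-T sites held the start of the chromosome up to 2 Mb (29 of 30 sites), G-to-A sites the stretch from 2 to 8 Mb (60 of 80 sites), and C-to-T sites everything beyond 8 Mb (180 of 204 sites). The limits of these stretches are those of 1 Mb bins with a majority of either class, and were set after the values were seen. Of the 313 pairs of neighbouring sites, 255 were of the same class. Runs of 1 class, uninterrupted by the other, numbered 59. There were 26 runs of a lone site, 13 runs had at least 5 sites, and 7 had at least 10, holding 195 of the 314 sites (62.1%).

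The longest run consisted of 67 C-to-T sites from 15538365, in the pseudogene AT3G43625, to 22175667, located 185 bp from AT3G60040. Its indices averaged 0.604 for thm1_like (SD 0.139) and 0.392 for WTa_like (SD 0.144), and delta was above 0 at 59 of the 67 sites. The next longest, of 55 C-to-T sites, ran from 8325810 to 12209688, with a mean of 0.601 against 0.50 and a smaller mean delta of 0.101. A run of 12 C-to-T sites from 12873064 to 13587299 had 0.706 against 0.494, and thus a high index in both pools. The opposite was seen near the chromosome's ends: the first run, 24 C-to-T sites from 45021 in AT3G01130 to 1559197 in AT3G05410, had 0.403 against 0.318. The last run, 10 C-to-T sites from 22954804 to 23459401 in AT3G63540, had 0.394 against 0.345, with an SD over its thm1_like indices of 0.240.

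The G-to-A runs were shorter. The run of 15 sites from 3676138, in NHL2, a gene of the NDR1/HIN1-like family, to 5254356 in AT3G15530 averaged 0.367 for thm1_like and 0.284 for WTa_like (mean delta 0.0829, SD 0.225). The run of 12 sites from 6872745 in AT3G19780 to 7700255 in SK10, which encodes a SKP1-like protein (SKP1 is a subunit of SCF ubiquitin ligases), had 0.562 against 0.289. Its mean delta of 0.272 (SD 0.208) exceeded that of any other run of at least 10 sites, and 10 of its 12 sites had a delta above 0.

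**Figure D2:**
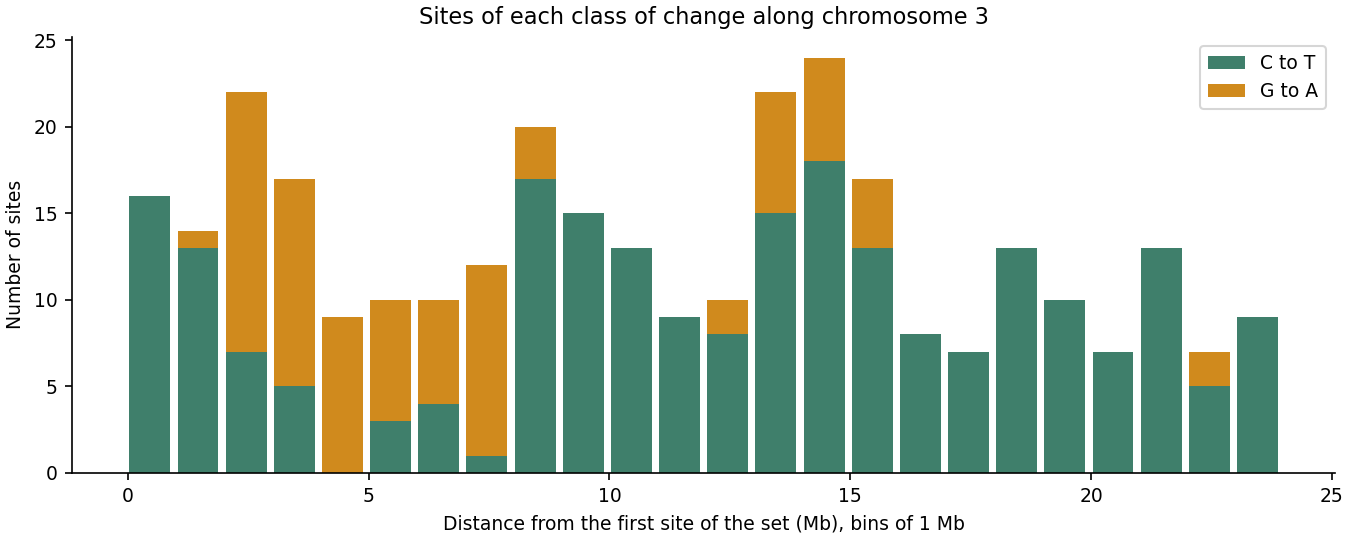
Number of C-to-T sites (green) and G-to-A sites (orange) in bins of 1 Mb along chromosome 3, by distance from the first site of the set. G-to-A sites form the majority in the 6 bins from 2 to 8 Mb and a minority or none elsewhere.

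Sites of the class that was in the minority in its stretch had lower indices, mainly in the thm1_like pool. In the stretch from 2 to 8 Mb, the 60 G-to-A sites had a mean thm1_like index of 0.438 (SD 0.149) and the 20 C-to-T sites among them 0.328 (SD 0.153). Beyond 8 Mb, the 180 C-to-T sites had 0.583 (SD 0.163) and the 24 G-to-A sites 0.374 (SD 0.129). In the WTa_like pool the corresponding means lay closer together, at 0.317 and 0.294 from 2 to 8 Mb and at 0.427 and 0.357 beyond 8 Mb. The mean delta over all 45 minority sites was 0.0238 (SD 0.197), with 24 above 0 and 21 below, against 0.140 (SD 0.213) over the 269 majority sites, and the difference was not tested.

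Of the 24 G-to-A sites beyond 8 Mb, 12 had another site of the set within 1 kb. Those 12 had a mean index of 0.355 against 0.429 and a mean delta of -0.0737 (SD 0.188). The other 12, without such a neighbour, had 0.393 against 0.285 and a mean delta of 0.109 (SD 0.130). Delta was thus below 0 on average with a close neighbour and above 0 without one, while the thm1_like index was below the 0.583 of the majority sites in both subsets. The first 12 all lay between 13699550 and 15254676 and the others from 8135953 to 22918847, so closeness went together with place. Some of the first 12 can share reads: the 2 from 13699550 to 13699570 had a mean delta of -0.214, the 3 from 14392019 to 14392080 one of 0.207. Whether mapping of reads to repeated sequence plays a part was not tested.

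**Figure D3:**
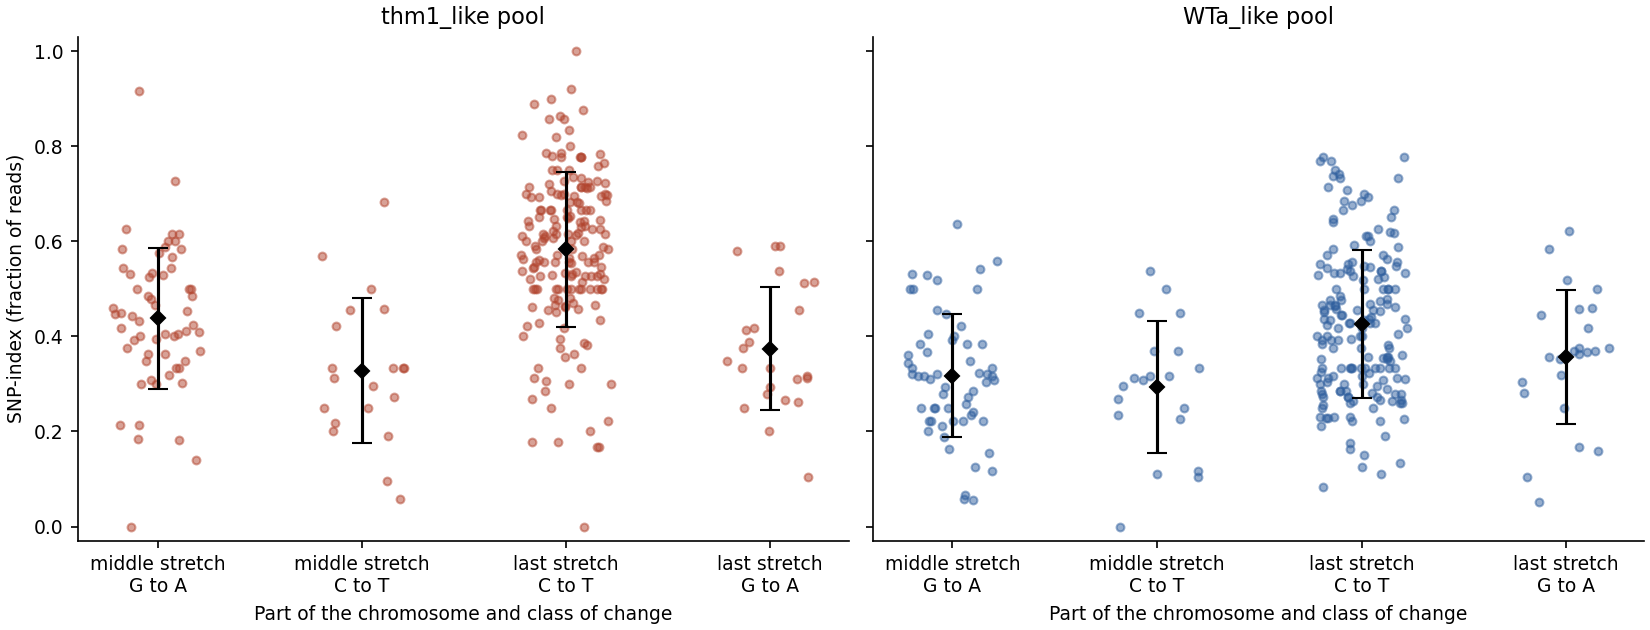
SNP-index (fraction of reads) of single sites in the thm1_like pool (left) and the WTa_like pool (right), by part of the chromosome and class of change. The middle stretch is 2 to 8 Mb and the last stretch lies beyond 8 Mb; diamonds are means and bars are SDs over sites. In the last stretch the thm1_like mean is 0.583 for C-to-T and 0.374 for G-to-A sites, and the WTa_like means are 0.427 and 0.357.

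The pool indices had their high and low stretches in different places. Up to 6 Mb both were low, with means of 0.387 (SD 0.153) and 0.324 (SD 0.137) over 88 sites. From 6 to 8 Mb the thm1_like index was 0.50 while the WTa_like index was 0.292, a mean delta of 0.208 (SD 0.195) over 22 sites. In the 1 Mb bin from 8 Mb the WTa_like index was 0.467, against 0.276 in the bin before it, and delta was 0.0336. The WTa_like index had its maximum of 0.602 (SD 0.118, 9 sites) in the bin from 11 Mb, where the thm1_like index was 0.645 and delta 0.0430. Delta was thus small up to 6 Mb (mean 0.0627), where both indices were low, and in the bin from 11 Mb, where both were high. It was not small at high index throughout: the bin from 10 Mb had 0.695 against 0.479 and a mean delta of 0.216 (SD 0.198, 13 sites).

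Delta was high over a broad stretch past the gene-poor middle of the chromosome. It was as high in the single bin from 7 Mb (0.267, SD 0.218, 12 sites). Within the gene-poor middle, the bin from 12 Mb had 0.233 (SD 0.158, 10 sites), as did the bin from 19 Mb (0.233, SD 0.212, 10 sites). From 16 to 21 Mb, 45 sites, all of them C-to-T, averaged 0.629 for thm1_like (SD 0.136) and 0.362 for WTa_like (SD 0.133). The mean delta was 0.267 (SD 0.176), and delta was above 0 at 43 of the 45 sites. Within it the bin from 17 Mb had the largest mean delta of any bin, 0.349 (SD 0.191, 7 sites), and at all 13 sites of the bin from 18 Mb the thm1_like pool was higher. From 21 Mb to the end the mean delta was 0.0904 (SD 0.247, 29 sites), with a thm1_like index of 0.499 and a WTa_like index of 0.408. The limits at 6, 8, 16 and 21 Mb were set after the bin means were seen.

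Over 1 Mb windows placed every 100 kb and holding 5 sites or more, mean delta was above 0 in 222 of 226 windows. The highest window, 17.3 to 18.3 Mb, had a mean of 0.369 (SD 0.171) over 8 C-to-T sites, with indices of 0.684 and 0.315. Without pseudogene sites the highest window was 12.5 to 13.5 Mb (0.350, 5 sites). The lowest, 10.7 to 11.7 Mb, had -0.0144 (SD 0.140) over 8 C-to-T sites, with indices of 0.583 and 0.598, and its place moved with the window size, the site minimum, the kind of average and the pseudogene sites. The highest mean index of a window was 0.738 for the thm1_like pool (9.8 to 10.8 Mb) and 0.634 for the WTa_like pool (10.9 to 11.9 Mb). No window of chromosome 3 approached fixation in either pool.

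**Figure D4:**
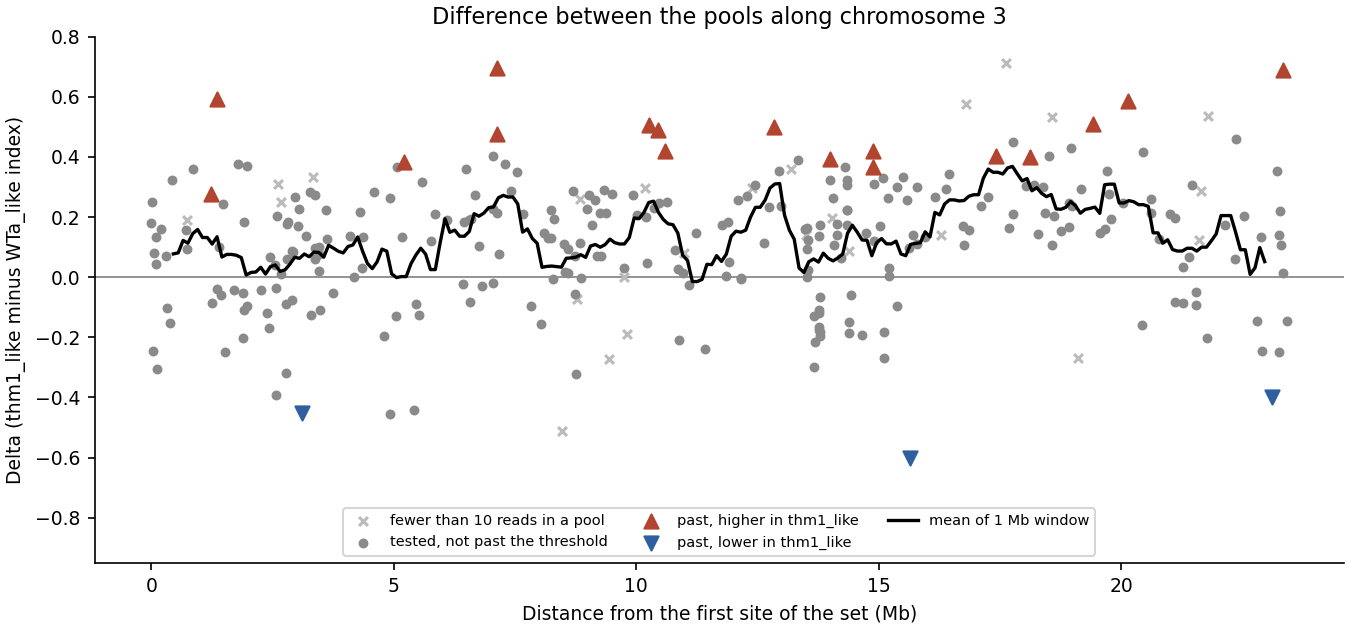
Delta of each site (thm1_like minus WTa_like index, as a fraction) against distance in Mb from the first site of the set, with the mean of 1 Mb windows as a line. Red upward triangles are the 17 sites past the adjusted threshold with a higher thm1_like index, blue downward triangles the 3 with a lower one, grey circles tested sites not past it and crosses sites with fewer than 10 reads in a pool. The line stays above 0 in 222 of 226 windows and has its maximum of 0.369 in the window from 17.3 Mb.

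The reads of the pools were compared site by site by Fisher's exact test (two-sided) over the 1816 nuclear sites where each pool had 10 reads or more. P-values were adjusted over all of them after Benjamini-Hochberg, with a threshold of 0.05. The test compares these 2 libraries, not the conditions. On chromosome 3, 289 of the 314 sites were tested and 20 passed, 17 higher in the thm1_like pool (5.88%) and 3 lower (1.04%). Over all tested nuclear sites 8.20% passed as higher and 4.41% as lower, so both shares on chromosome 3 were below those of the table. Among the nuclear sites of these classes, the same calls made up 11.1% and 2.63%. Chromosome 4 gave 75 of the 139 higher calls in these classes, 47.8% of its 157 tested sites. The higher share was 10.7% on chromosome 1, 4.84% on chromosome 2 and 0.365% on chromosome 5. All 20 chromosome 3 sites that passed were of the majority class of their stretch. None of the 44 tested minority sites passed, and 4 of the 44 (2 higher, 2 lower) had an unadjusted p under 0.05 in the same test. The difference in calls between majority and minority sites was not tested. Of the 187 sites with an index of at least 0.3 in both pools, 172 were tested, and 5 passed as higher (2.91%) and 0 as lower. The 89 sites that reached 0.3 only in the thm1_like pool gave 12 of the higher calls, 14.8% of their 81 tested sites. The 36 that reached it only in the WTa_like pool gave the 3 lower ones, 8.82% of their 34 tested sites. Where only 1 pool reached 0.3, the sign of delta follows from the grouping. With Bonferroni adjustment over all nuclear sites none of the 20 passed, while 58 of the 289 sites had an unadjusted p under 0.05. With at least 20 reads required in both pools, 10 of them could be tested, and 9 higher and 1 lower passed.

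The sites that passed lay along the whole chromosome. Of the 17 higher ones, the 12 with a WTa_like index below 0.3 reached 0.3 only in the thm1_like pool. The 3 lower ones reached it only in the WTa_like pool. In protein-coding gene bounds 10 of 170 tested sites were higher and 1 lower, and the 5.88% higher is the share found over all 289 tested sites. In the stretch of G-to-A changes, POLGAMMA1 (AT3G20540; 7168054 to 7173617) encodes an organellar DNA polymerase that copies the mitochondrial and plastid genomes. At 7170362, 11 of 12 thm1_like reads (0.917, interval 0.615 to 0.998) and 4 of 18 WTa_like reads (0.222, interval 0.0641 to 0.476) carried the non-WTa allele, with a delta of 0.694 (exact test, adjusted p = 0.0100). The intervals did not overlap, but the WTa_like index was below 0.3 and the site is named for its large delta. Every site of the set had an index of at least 0.296 in 1 pool or both. Neither the intervals nor the test allow for that. The neighbouring site, 5699 bp before it, lay in SVL3 (AT3G20520), a SHV3-like gene of the glycerophosphodiester phosphodiesterase family. There 24 of 33 against 5 of 20 reads carried the allele (delta 0.477, exact adjusted p = 0.0202). The next gene, DDL, which encodes a forkhead-associated protein of microRNA biogenesis, had 5 of 10 against 6 of 21 reads at 7175160 and a delta of 0.214 that did not pass.

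HMT2 (AT3G63250; 23369781 to 23372823) encodes a homocysteine methyltransferase, an enzyme that makes methionine from homocysteine, and held 2 sites near the end of the chromosome. At 23371804, 14 of 17 thm1_like reads (0.824, interval 0.566 to 0.962) and 2 of 15 WTa_like reads (0.133, interval 0.0166 to 0.405) carried the non-WTa allele (delta 0.690, exact adjusted p = 0.00653). At 23371361, only 443 bp away, the counts were 5 of 16 (0.312) and 6 of 20 (0.30), and delta was 0.0125. The pools thus differed at one site of the gene and had nearly the same index at the other. The reads alone do not show whether the 2 alleles lie on the same chromosome copy.

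In the stretch from 16 to 21 Mb, 4 of 40 tested sites passed (10%). The share was 5.88% over the chromosome's tested sites and 11.1% over nuclear sites of these classes, chromosome 4 included. All 4 lay within protein-coding bounds, which held 7 of 8, 6 of 7, 8 of 13, 7 of 10 and 6 of 7 sites in the successive 1 Mb bins. PHS1 (AT3G47390) encodes a pyrimidine reductase of riboflavin synthesis and had the non-WTa allele in 28 of 36 against 12 of 32 reads at 17462278 (delta 0.403, exact adjusted p = 0.0184). AT3G49000 had 25 of 33 against 10 of 28 at 18165646 (delta 0.40). AT3G52510 had 14 of 18 against 4 of 15 at 19469952 (delta 0.511). AT3G54510 had the largest delta of the 4, with 19 of 22 (0.864) against 5 of 18 (0.278) at 20180887 (delta 0.586, exact adjusted p = 0.00704). The thm1_like index of these 4 sites was between 0.758 and 0.864 and the WTa_like index between 0.267 and 0.375.

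Elsewhere in gene bounds, AT3G05050 had 9 of 12 against 3 of 19 reads at 1409176 (delta 0.592, exact adjusted p = 0.0240), in a part of the chromosome where the mean thm1_like index was 0.448. AT3G15530 had 19 of 43 against 1 of 17 at 5254356 (delta 0.383), a difference that came from a very low WTa_like index. AT3G33494 had 18 of 24 against 10 of 28 at 14038401 (delta 0.393). The adjusted p of the site in AT3G33494, 0.0491 in the exact test, and that of 1284075 (0.0497), located 1350 bp from the pathogenesis-related gene PR4, were close to the threshold. Both rose above it with a minimum of 7 reads and without sites deeper than 2 times the median depth. The pseudogenes AT3G42806 and AT3G42820, with sites 9299 bp apart, had deltas of 0.366 (30 of 42 against 16 of 46 reads) and 0.420 (28 of 40 against 7 of 25 reads).

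Between 10 and 13 Mb, protein-coding bounds held 8 of 13, 2 of 9 and 0 of 10 sites in successive 1 Mb bins. In this part 4 sites passed, all of them higher and outside gene bounds: 3 of 12, 0 of 8 and 1 of 9 tested sites in these bins. The higher share was 5.88% over the chromosome's tested sites and 11.1% over nuclear sites of these classes, chromosome 4 included. The one at 10494184, located 3993 bp from AT3G28170, combined the highest thm1_like index of the 20 with a middle WTa_like index: 23 of 25 reads (0.920, interval 0.740 to 0.990) against 15 of 35 (0.429, interval 0.263 to 0.606; exact adjusted p = 0.00348). The site at 10302667, located 3182 bp from MYB21, a transcription factor gene of stamen development, had 15 of 22 against 3 of 17 reads (delta 0.505). The sites at 10638563 and 12873064 had deltas of 0.421 and 0.50.

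At 3 sites the thm1_like pool was lower. AT3G10180 had the non-WTa allele in 5 of 27 (0.185) against 14 of 22 reads (0.636) at 3154632, a G-to-A change (delta -0.451, exact adjusted p = 0.0290). The pseudogene AT3G43830 had the most negative delta of the 314 sites, -0.603, with 2 of 12 against 10 of 13 reads at 15679384 (exact adjusted p = 0.0427). At 23146099, located 710 bp from AT3G62580, 0 of 20 thm1_like reads carried the non-WTa allele (limit 15.0%, upper end of the exact interval 0.168), against 6 of 15 (delta -0.40, exact adjusted p = 0.0320). Each of these sites lay in a 1 Mb bin with a positive mean delta, but so did every site of the set. The lowest mean of a bin was 0.0158, in the bin from 13 Mb.

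**Figure D5:**
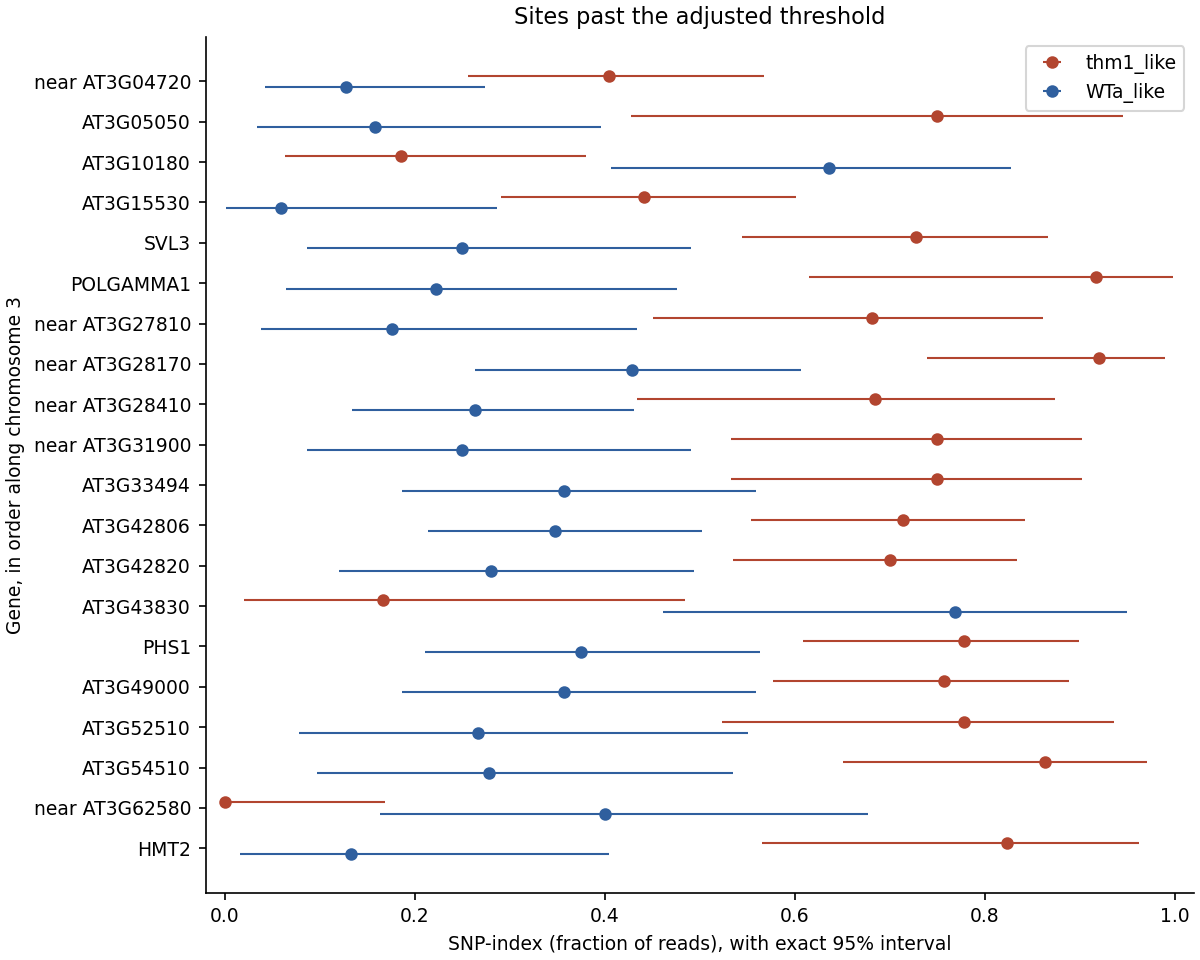
SNP-index (fraction of reads) of the thm1_like pool (red) and the WTa_like pool (blue) at the 20 sites past the adjusted threshold, in order along the chromosome, with exact 95% intervals for counting error. Rows are named by the gene whose bounds hold the site, or by the nearest protein-coding gene. In 17 rows the red point lies to the right; in those of AT3G10180, AT3G43830 and the site near AT3G62580 it lies to the left.

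An index of at least 0.9 occurred at 4 sites, all in the thm1_like pool; the highest WTa_like index was 0.778. Besides the sites in POLGAMMA1 and near AT3G28170, these lay in pseudogenes: AT3G47875 (17664235), where the counts were 10 of 10 and 2 of 7 reads, and AT3G33025 (13572565), where they were 18 of 20 and 14 of 19. The first had the largest delta of the chromosome, 0.714, but too few WTa_like reads for the test, and its WTa_like interval of 0.0367 to 0.710 was wide. At the second both pools were high and delta was 0.163 (exact adjusted p = 0.471). The most negative deltas included 3 further sites that did not pass or were not tested. They were 8509713, 64 bp from HGL1 (2 of 9 against 11 of 15 reads, delta -0.511), 4968946 in the pseudogene AT3G14800 (0 of 14 against 5 of 11, limit 21.4%, upper end of the exact interval 0.232, delta -0.455) and 5467359 in ROPGEF13 (2 of 21 against 7 of 13, delta -0.443). ROPGEF13 belongs to a family of activators of plant ROP GTPases, and its site was a C-to-T change in the G-to-A stretch.

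Protein-coding bounds held 186 of the 314 sites (59.2%), pseudogenes 31 (9.87%), and 97 (30.9%) lay outside gene bounds, at a median of 1589 bp from the nearest protein-coding gene. The bounds of 182 protein-coding genes of the 5460 on the chromosome were hit, 7 of them at 2 sites each. Sites in protein-coding bounds had a mean index of 0.498 against 0.361 (mean delta 0.138), pseudogene sites 0.573 against 0.432 (0.141), and sites outside gene bounds 0.50 against 0.411 (0.0891). Split by class, the mean delta of G-to-A sites was 0.140 (SD 0.202) at 56 sites in protein-coding bounds and -0.00682 (SD 0.164) at 22 sites outside gene bounds, while that of C-to-T sites was 0.137 (130 sites) and 0.117 (75 sites). These means were not tested against each other. Exons were not used here, so the effect of a change on a protein is not given.

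Words fixed for functional lists were searched in the gene symbols and synonyms. The lists thus miss genes whose names lack the word, such as the kinase gene ATM and the transcription factor gene BZIP28, both named below. Genes found by the word kinase numbered 5 of 114 on the chromosome, with 1 site each and a median delta of 0.295; none passed and 1 was not tested. They were CDC2, the cell-cycle kinase CDKA;1 (22 of 39 against 6 of 23 reads, delta 0.303), ATPK7, MAPKKK7 and 2 genes that are no kinases, the phosphatase gene MKP1 (8 of 16 against 1 of 12, delta 0.417) and ROPGEF6. The median delta of all 314 sites was 0.146, and members of so small a list are named for what they are, not as a group that stands apart. Of the 59 transporter and channel genes 2 were hit. The mechanosensitive channel gene MSL5 had a delta of 0.263 and the ammonium transporter gene AMT1;5 one of -0.321, and neither passed. Hits among the 56 genes of the receptor list were RLP43 (delta 0.0268) and Cand3 (delta 0.536, from 11 of 14 against 2 of 8 reads, not tested). POLGAMMA1 was the single hit of the 25 genes of the polymerase, helicase and repair list and passed. CYP705A33 was that of the 64 genes of the cytochrome P450 list (delta 0.376, not passed). Transcription factor, F-box or ubiquitin, disease resistance and pentatricopeptide as words found no gene hit, but these lists hold only 26, 33, 3 and 4 genes. With 182 of 5460 protein-coding genes hit in all, lists so small do not show that a family was spared.

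Other genes with well-known roles were also hit; they are named for their roles, after their values were seen, and none of their sites passed. ATM, the kinase that signals DNA double-strand breaks, held 2 sites, 17811850 (16 of 22 against 5 of 18 reads, delta 0.449) and 17820518 (10 of 25 against 4 of 21, delta 0.210), both higher in the thm1_like pool. ARP6, a subunit of the SWR1 complex that deposits the histone variant H2A.Z, had 21 of 30 against 14 of 32 reads (delta 0.262). ETO1, a regulator of ethylene synthesis, had 15 of 27 against 5 of 19 (delta 0.292). BZIP28, a transcription factor gene of the unfolded protein response, had 8 of 24 against 0 of 7 (limit 42.9%, upper end of the exact interval 0.410). Delta was above 0 at each of these sites, as at 231 of all 314 sites. Genes with nearly equal indices were set apart below, and genes with a negative delta, such as AMT1;5 and ROPGEF13, are named elsewhere. The shared sign thus follows from which genes are named here and is not a result.

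Other such genes had nearly the same index in both pools. ACT2, which encodes a vegetative actin, had 11 of 23 thm1_like and 5 of 10 WTa_like reads (delta -0.0217). TOPII, the topoisomerase II gene, had 17 of 26 against 16 of 25 (delta 0.0138). HST, which encodes the microRNA exporter HASTY, had 17 of 39 against 18 of 38 (delta -0.0378). The intervals of such sites are wide (over the 314 sites the median width was 0.397 in the thm1_like pool), and a small delta does not show that the pools carry the same share.

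Sites close to each other were concentrated in the part of the chromosome with the fewest genes. The 1 Mb bin from 13 Mb held the starts of 25 protein-coding genes, against 333 in the first bin, and had 22 sites, none of them in protein-coding bounds. Of 19 neighbouring pairs within 1 kb, 15 lay between 13 and 16 Mb, and 8 of the 19 joined a G-to-A and a C-to-T site. At 13812138 and 13812139, adjacent bases 208549 and 208548 bp from the nearest protein-coding gene, 5 and 7 of 28 thm1_like reads and 17 and 20 of 48 WTa_like reads carried the non-WTa allele. Reads that cover one such base can cover the other too, so the pair is not 2 observations. In the pseudogene AT3G42236, 5 sites between 14392019 and 14392205 had deltas from 0.175 to 0.325, all above 0, whereas the pair in the pseudogene AT3G42258 had -0.149 and -0.185.

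The 32 sites with another within 1 kb averaged 0.414 for thm1_like and 0.410 for WTa_like, with a mean delta of 0.00469 (SD 0.217). The 282 others had 0.517 against 0.380 and a mean delta of 0.136 (SD 0.210). In the bin from 13 Mb the mean delta was 0.0158 (SD 0.194, 22 sites), with 11 sites above 0, and the WTa_like pool had a median depth of 28 reads there against 20 in the thm1_like pool. Whether depth or mapping plays a part in these values was not tested.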

How the data were processed

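Leaf DNA of 3 libraries was sequenced (WTa, thm1_like, WTa_like; library names T4 and T2 tie the pool columns to the labels). The deposited table gives raw read counts per site and, as a fraction, the SNP-index of each pool, per the file headers; TAIR10 is the build named in the submitters' processing notes. No source used here states the aligner, caller or filters. The deposited fraction matched the index recomputed from reads at all 314 sites within 0.005. At 1 site WTa carries the alternative allele, and reads of the reference allele were counted there.

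Index, delta, bins, windows, runs and Fisher's exact tests were computed with Python 3.11.15, scipy 1.17.1 and pandas 2.3.3, and the test was checked on simulated data. Genes come from a RefSeq table of assembly TAIR10.1 with the same chromosome identifiers; it gives bounds, no exons. No genome sequence was used.

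Named are sites past the threshold, the 5 largest and 5 most negative deltas, sites with an index of at least 0.9 in a pool, the ends of runs of at least 10 sites, and members of the word lists; no site had an index of at most 0.05 in a pool and at least 0.5 in the other, and the part on promoters was not applied. Other genes with well-known roles, DDL beside POLGAMMA1 and the sites of close pairs were named outside this rule, after their values were seen. The sites and lists were chosen with earlier results of these data known. Alternatives were read minimums, adjustments, depth and gene filters, averages and windows.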

Additional observations from a re-analysis of the deposited data

How the results depend on the processing

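The calls depended on the adjustment and on the read minimum: with Bonferroni adjustment 0 sites were higher and 0 lower, and with a minimum of 20 reads 9 were higher and 1 lower, against 17 and 3. At an unadjusted p under 0.05 in the same test, 48 were higher and 10 lower. As medians over sites, delta was 0.146 over all sites, 0.128 over G-to-A sites and 0.160 over C-to-T sites, each above its mean. Without the sites that have another within 1 kb, an alternative chosen after the data were seen, the mean delta of G-to-A sites was 0.122 against 0.0892. Under the other alternatives the counts stayed within 1.5 times, and means and windows within the counting interval. The highest window lay elsewhere without pseudogene sites (12.5 to 13.5 Mb, 0.350). The lowest window had no stable place: it lay at 22.2 to 23.2 Mb without pseudogene sites (-0.0655), at 22.8 to 23.3 Mb with windows of 0.5 Mb (-0.0590) and at 10.9 to 11.9 Mb with pooled reads (-0.0381). It lay at 4.6 to 5.6 Mb with medians (-0.0893) and with at least 10 sites (-0.000994), and at 1.3 to 3.3 Mb, above 0, with windows of 2 Mb (0.0423). No paired analysis was possible because each group has 1 library. Depth limits single sites: the exact interval of a site's index had a median width of 0.397 for thm1_like and 0.403 for WTa_like.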
